A study of Malus domestica with 18 samples.

Results

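Cytochrome P450 genes of families other than CYP86 were described in the skin of "Golden Delicious" apple fruit. They were found by their best-match description in the NCBI protein database (cytochrome P450, leaving out descriptions of CYP86, of chloroplastic forms, and of abscisic acid or gibberellin enzymes, and 4 further listed genes). The rule took 48 of the 54 P450 genes among the 2856 genes of the deposited table, and these 48 genes fell into 13 CYP families. CYP names below are those of the best match, often in another species, and do not show what an apple enzyme does. The rule used no expression value, but every gene of the table had passed the authors' own comparison of all bagged with all unbagged libraries, in which 9 of the 48 genes were higher and 39 were lower in bagged skin, against 610 and 2246 of all genes. A direction of bagged against unbagged skin is therefore not independent evidence here, and shares of all genes are shares of selected genes.

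RNA-seq measured messenger RNA in fruit skin under 2 conditions. In the T group, fruits were covered at DAF20 (days after flowering) with light-proof double-layer paper bags, and in the CK group fruits stayed uncovered. Skin was taken at DAF30 (T1 and CK1), DAF60 (T2 and CK2) and DAF150 (T3 and CK3), with 3 libraries in each of the 6 groups and 3 fruits mixed in a sample. Unbagged fruit of this cultivar forms brown, corky russet, and the comparison asked which genes differ when fruit is bagged, a practice used against russet. By the study's methods, the replicates of a group are separate trees. The libraries were taken as independent, so any tree sampled at more than 1 stage, or for both T and CK, is not allowed for. The methods do not state whether T and CK fruits came from the same trees. Levels are FPKM, fragments scaled by gene length and by the mapped fragments of the library, and the fragment count under each value is unknown.

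Cytochrome P450 enzymes are haem proteins, mostly anchored in the endoplasmic reticulum, that insert an oxygen atom into a substrate with electrons from NADPH delivered by a reductase. Plants hold very large families of them. They build lignin monomers, cutin, flavonoids, terpenoids and defence compounds, and they also switch off hormones such as jasmonate, brassinosteroids and gibberellins.

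The libraries of a group correlated at 0.895 to 0.959 and libraries of different groups at 0.296 to 0.938 (Pearson, log2 values). Among markers of the tissues that skin could carry, the sum of 17 green cortex genes was 483 to 587 FPKM in T2 against 2260 to 4930 FPKM in CK2, and 483 to 864 FPKM in T3 against 4210 to 5730 FPKM in CK3. Of the 16 of these genes tested, 14 fell at DAF60 and 15 at DAF150 (61.9% and 31.5% of all genes tested fell). The sum of 43 epidermis and cuticle genes was 215 to 330 FPKM in T2 against 428 to 947 FPKM in CK2, and 25 vascular genes summed to 38.3 to 214 FPKM in T3 against 18.6 to 72.7 FPKM in CK3. Of the 31 epidermis and cuticle genes tested, 22 fell and 6 rose at DAF60 (61.9% and 9.51% of all genes tested). Among those that rose, MD12G1252500 (a GDSL esterase/lipase) had 76.7 ± 11 FPKM in T2 and 26.3 ± 17 FPKM in CK2. The marker lists were keyword matches to gene descriptions and were not checked as tissue markers in apple. The paper reports a thicker wax layer in T than in CK at every stage, and the sum of these genes does not measure the cuticle itself. Of the 15 vascular genes tested, 10 rose and 2 fell at DAF150 (12.6% and 31.5% of all genes tested). The part of these shifts in the results below was not tested, and in such bulk skin fewer cells of a type and less RNA per cell cannot be told apart.

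Of the 48 genes, 28 had at least 1 FPKM in at least 3 libraries and were tested, and 20 were not. MD02G1136000 reached 1 FPKM in T3 alone, and MD11G1219900 in CK2 alone. MD03G1281500, MD06G1213300, MD11G1220600 and MD14G1224600 reached it only in CK libraries. These genes were tested only because of the groups where they are high, so their calls are not independent of the minimum. The highest single value, 147.3 FPKM, belonged to MD10G1158100 (CYP82G1) in CK1. Over all 18 libraries the highest mean levels were those of MD10G1158100 (17.5 FPKM), MD15G1028200 (CYP82A3, 16.6 FPKM), MD06G1212400 (CYP94A2, 13.4 FPKM), MD06G1213500 (CYP736A12, 12.5 FPKM), MD07G1238800 (CYP714A1, 12.3 FPKM) and MD08G1032800 (CYP734A1, 8.38 FPKM). The 6 genes had different patterns, described below. By group mean, 22 of the 48 genes (45.8%, against 36.8% of all genes in the table) were highest in CK2, 9 in CK3, 8 in CK1, 7 in T3, 2 in T1 and 0 in T2. The first library of CK2 held the highest CK2 value for 23 of the 28 genes tested (58.1% of all genes tested), and that of CK1 the highest CK1 value for 16 (45.6%). Each count below was therefore repeated without the first library of CK1, CK2 and CK3 together.

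At DAF30, 0 of the 28 genes rose and 2 fell in T against CK, where 2.07% of all genes tested rose and 12.4% fell. At DAF60 there was 1 rise and there were 17 falls (9.51% and 61.9% of all genes tested). At DAF150, 4 genes rose and 8 fell (12.6% and 31.5% of all genes tested). A gene was called to rise or fall at an adjusted p of at most 0.05 (limma, Benjamini-Hochberg over the 1399 genes tested), and at an unadjusted p under 0.05 the counts of rises and falls were 1 and 5 at DAF30, 1 and 17 at DAF60, and 4 and 10 at DAF150. The median log2 fold change of the 28 genes was -0.13, -1.38 and -0.54 at DAF30, DAF60 and DAF150, beside -0.12, -1.06 and -0.37 over all genes tested. When each library was centred on its median, which sets the genes against the common fall of the table, 5 rose and 8 fell at DAF60 (23.7% and 11.2% of all genes tested) and 4 rose and 3 fell at DAF150 (17.2% and 20.7%). Calls of a fall were lost by centring at both DAF60 and DAF150 for MD03G1281500, MD05G1170000, MD11G1220600 and MD11G1274100. They were lost at DAF60 alone for MD10G1158100, MD10G1190400, MD14G1224600, MD15G1028300 and MD15G1028700, and at DAF150 alone for MD15G1028200. Without the first CK libraries the falls numbered 1, 17 and 8 at DAF30, DAF60 and DAF150, and the rises 0, 1 and 4. The falls at DAF30 numbered 4 without the second T1 or the third CK1 library and 1 without the third T1 library, and those at DAF150 numbered 3 without the second T3, 4 without the first CK3 and 5 without the second CK3 library.

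**Figure D1:**
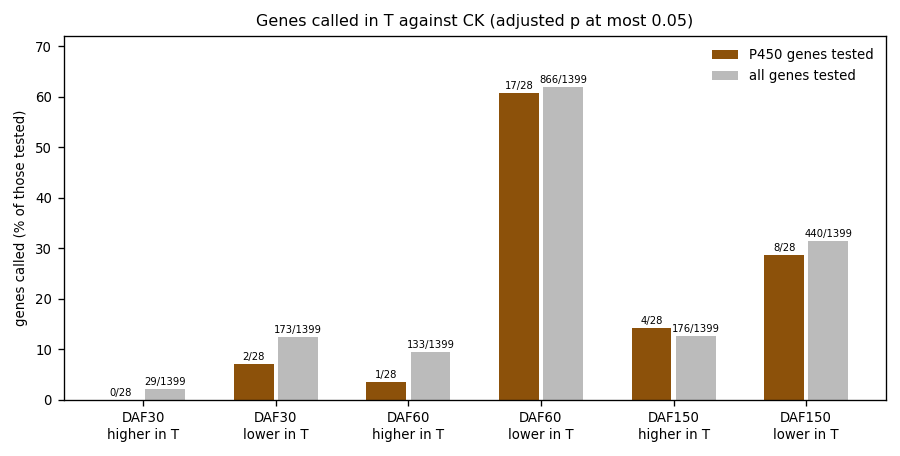
Share of genes called higher or lower in T against CK at each stage (vertical axis, percent of genes tested), for the 28 P450 genes tested (brown) and all 1399 genes tested (grey), with the counts above the bars. The brown and grey bars follow each other, and the highest pair is the fall at DAF60, 17 of 28 P450 genes and 61.9% of all genes.

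**Figure D2:**
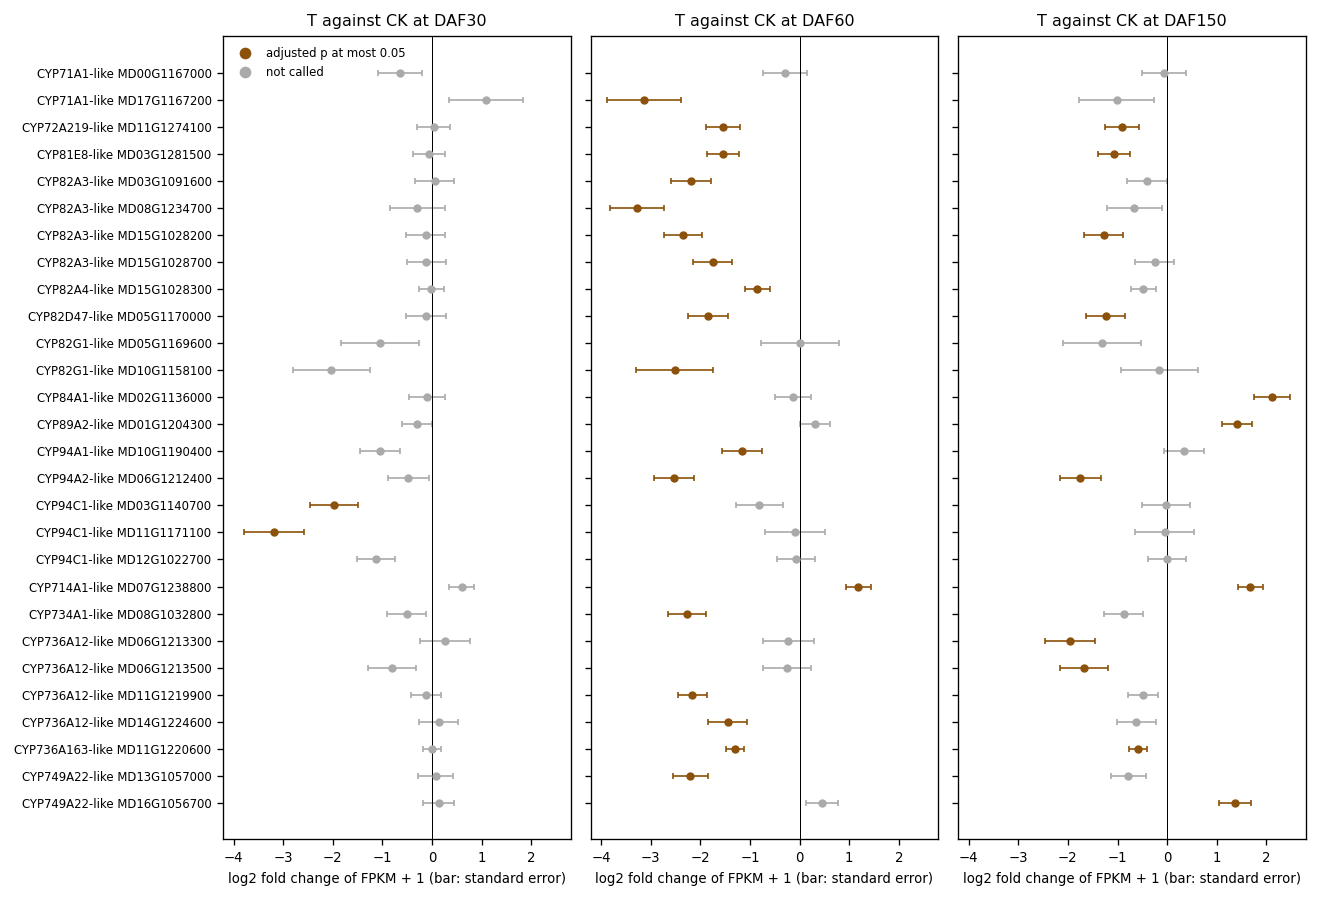
Log2 fold change of T against CK on the log2(FPKM + 1) scale (horizontal axis) with its standard error, for each of the 28 P450 genes tested, in a panel for each stage. Called genes are brown and others grey. The 2 brown points at DAF30 are CYP94C1 genes, 17 brown points lie left of 0 at DAF60, and 4 lie right of 0 at DAF150.

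The 2 P450 genes that fell at DAF30 belonged to the CYP94 family of 7 genes and were 2 of its 4 CYP94C1 genes. In Arabidopsis, CYP94B3 and CYP94C1 oxidise and so inactivate the hormone jasmonoyl-isoleucine, while CYP94A enzymes of other plants hydroxylate the ends of fatty acids, the building blocks of cutin. MD11G1171100 (CYP94C1, GDDH13 v1.1 chromosome 11, 18610980 to 18612581, plus strand) had 5.65, 2.12 and 0.83 FPKM in T1 against 71.2, 26.6 and 13.1 FPKM in CK1. Every T1 library lay below every CK1 library, and the log2 fold change was -3.18 (SE 0.60, adjusted p = 0.0047). At DAF60 it had 0.37, 2.15 and 4.22 FPKM in T2 against 3.13, 1.41 and 1.72 FPKM in CK2, with overlapping libraries (log2 fold change -0.09, adjusted p = 0.91). In CK, its level at DAF60 was lower than at DAF30 by 3.34 on the log2 scale (adjusted p = 0.0004).

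MD03G1140700 (CYP94C1, chromosome 3, 14812378 to 14814078, minus strand) had 4.26, 9.25 and 2.91 FPKM in T1 against 66.4, 15.5 and 10.4 FPKM in CK1 (log2 fold change -1.97, SE 0.48, adjusted p = 0.013). Its T1 and CK1 libraries did not overlap, but the call was lost without the third T1 library (log2 fold change -1.67, adjusted p = 0.06) and without the first CK libraries together (-1.21, adjusted p = 0.051), and in a fit of T1 and CK1 alone (adjusted p = 0.12). Without the first CK1 library alone the change was also -1.21 and was called. At DAF60 it had 0.44, 0.61 and 0.43 FPKM in T2 against 1.13, 1.35 and 2.60 FPKM in CK2, which did not overlap but were not called (-0.81, adjusted p = 0.13). It was called lower at DAF60 with a pseudocount of 0.1 FPKM (-1.52, adjusted p = 0.032), in a fit of T2 and CK2 alone (adjusted p = 0.026) and without the first CK1 library (adjusted p = 0.026). At DAF150 all its values lay between 0 and 0.14 FPKM in both groups. The other jasmonate-type genes were not called or not tested at DAF30. MD12G1022700 (CYP94C1) had 0.78, 1.74 and 0.04 FPKM in T1 against 6.13, 3.51 and 0.67 FPKM in CK1 (log2 fold change -1.13, adjusted p = 0.055), and it was called lower without the third CK1 library (-1.72, adjusted p = 0.0028), without the second T1 library (-1.47, adjusted p = 0.031) and with a replicate block (adjusted p = 0.04). MD06G1142900 (CYP94B3), below the test's minimum, had 0.18, 0.98 and 0.04 FPKM in T1 against 3.57, 1.17 and 0.34 FPKM in CK1. The last of the type, MD14G1019500 (CYP94C1), stood apart in time: it was at most 0.18 FPKM in T1 and CK1, and it had 0.21, 0.16 and 0.16 FPKM in T2 against 0.22, 1.16 and 1.94 FPKM in CK2. MD12G1022700, MD06G1142900 and MD14G1019500, like others named below that are not among the 17 genes the naming rule takes, were picked with their values known.

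The 2 CYP94A genes, of the fatty acid hydroxylase type, both fell at DAF60, as did 61.9% of all genes tested. MD06G1212400 (CYP94A2, chromosome 6, 34482873 to 34484423, minus strand) had 1.99, 3.86 and 2.20 FPKM in T2 against 32.2, 19.0 and 12.4 FPKM in CK2 (log2 fold change -2.53, SE 0.41, adjusted p = 0.0001). It had 7.70, 4.98 and 6.55 FPKM in T3 against 29.8, 17.8 and 24.7 FPKM in CK3 (log2 fold change -1.75, adjusted p = 0.0023). At both stages the T and CK libraries were apart, while at DAF30, with 11.6 ± 6.2 FPKM in T1 and 14.7 ± 2.4 FPKM in CK1 (SD, n = 3 each), they overlapped. Within T its level at DAF60 was below that at DAF30 by 1.64 on the log2 scale (adjusted p = 0.0073), and within CK it did not change by the test (0.41, adjusted p = 0.45). MD10G1190400 (CYP94A1) had 3.88, 3.51 and 2.99 FPKM in T1 against 6.91, 7.95 and 10.1 FPKM in CK1, which did not overlap but were not called (log2 fold change -1.05, adjusted p = 0.097). It fell at DAF60, with 2.94, 4.73 and 3.09 FPKM in T2 against 17.4, 3.94 and 10.4 FPKM in CK2 (log2 fold change -1.16, adjusted p = 0.019). This call was lost on leaving out the first (-0.73) or the third CK2 library (-1.08) or the first (-1.06) or the third T2 library (-1.09).

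The CYP82 family, 8 genes that were all tested, had 7 falls at DAF60 and 2 at DAF150 (61.9% and 31.5% of all genes tested fell). None of its genes was called at DAF30. CYP82A3 was described in soybean as a stress-responsive gene, and CYP82G1 of Arabidopsis makes volatile homoterpenes that are released after attack by insects. The most highly expressed CYP82A3 gene, MD15G1028200 (chromosome 15, 1669684 to 1671770, plus strand), had 9.54, 7.28 and 7.83 FPKM in T2 against 63.9, 39.7 and 37.5 FPKM in CK2 (log2 fold change -2.35, SE 0.39, adjusted p = 0.00011). At DAF150 it had 10.98, 4.93 and 5.33 FPKM in T3 against 20.0, 20.2 and 13.5 FPKM in CK3 (log2 fold change -1.28, adjusted p = 0.012), and this call was lost without the second T3 library (-1.1, adjusted p = 0.06). Its level was almost flat over the T stages, with means of 9.23, 8.22 and 7.08 FPKM in T1, T2 and T3, whereas the CK means were 10.2, 47.0 and 17.9 FPKM in CK1, CK2 and CK3.

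MD08G1234700 (CYP82A3, chromosome 8, 30161595 to 30164033, minus strand) had the largest fall among the 28 genes at DAF60. It had 0.77, 0.46 and 0.73 FPKM in T2 against 35.8, 11.9 and 7.67 FPKM in CK2 (log2 fold change -3.28, SE 0.55, adjusted p = 0.00012). At DAF150, with 1.78 ± 1.3 FPKM in T3 and 3.30 ± 1.6 FPKM in CK3, the libraries overlapped and the difference was not called (-0.66, adjusted p = 0.38). The remaining CYP82A genes were lower in level and also fell at DAF60: MD03G1091600 (CYP82A3, log2 fold change -2.19), MD15G1028700 (CYP82A3, -1.75) and MD15G1028300 (CYP82A4, -0.85). After median centring the last of these was on the other side of 0 (0.31, adjusted p = 0.28). The 4 CYP82A3 genes share the same best match, so closely similar copies may share reads. MD05G1170000 (CYP82D47, chromosome 5, 29970179 to 29972569, plus strand) had 0.77, 0.33 and 0.31 FPKM in T2 against 6.43, 5.14 and 2.12 FPKM in CK2 (log2 fold change -1.84, SE 0.40, adjusted p = 0.00083). At DAF150 it had 1.35, 0.53 and 0.42 FPKM in T3 against 3.45, 6.73 and 0.97 FPKM in CK3, which overlapped (log2 fold change -1.24, adjusted p = 0.018). That call was lost on leaving out the first (-1.18) or the second CK3 library (-0.78), or the second (-1.16) or the third T3 library (-1.1).

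The 2 CYP82G1 genes, of the homoterpene type, varied widely between libraries of a group. MD10G1158100 (chromosome 10, 24694444 to 24696651, minus strand) had 7.5, 51.2 and 2.20 FPKM in T1 against 147.3, 31.8 and 19.1 FPKM in CK1, where the second T1 library exceeded 2 CK1 libraries (log2 fold change -2.03, SE 0.78, adjusted p = 0.091). The difference at DAF30 was called without that library (-3.14, adjusted p = 0.016) and without the third CK1 library (-2.63, adjusted p = 0.048). At DAF60 the groups were apart, with 1.81, 3.53 and 0.83 FPKM in T2 against 24.4, 10.2 and 14.3 FPKM in CK2 (log2 fold change -2.52, SE 0.78, adjusted p = 0.0088). The gene was nearly silent at DAF150, at 0.15 FPKM or less in T3 and 0.27 FPKM or less in CK3, and its log2 fold change of -3.78 in CK between DAF60 and DAF150 (adjusted p = 0.00058) was the largest change between neighbouring stages among the 28 genes in CK. The other gene, MD05G1169600, was not called at any stage. It had 10.4, 1.62 and 4.52 FPKM in T3 against 51.8, 14.2 and 2.15 FPKM in CK3, and without the third CK3 library it was called lower (log2 fold change -2.37, adjusted p = 0.01).

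The Arabidopsis enzyme CYP734A1 inactivates brassinosteroids. MD08G1032800 (CYP734A1, chromosome 8, 2332886 to 2335374, minus strand) had 2.23, 2.54 and 3.98 FPKM in T2 against 37.9, 9.86 and 14.2 FPKM in CK2 (log2 fold change -2.27, SE 0.39, adjusted p = 0.00014). At DAF150 its libraries were still apart, with 1.1, 0.90 and 1.24 FPKM in T3 against 2.50, 4.04 and 2.17 FPKM in CK3, but the difference was not called (-0.88, adjusted p = 0.078). It was called lower at DAF150 without the first (adjusted p = 0.021) or the second CK2 library (adjusted p = 0.049), which enter through the shared spread. MD13G1057000 (CYP749A22, chromosome 13, 3990668 to 3993203, minus strand) had 0.40, 0.27 and 0.29 FPKM in T2 against 7.86, 2.25 and 6.76 FPKM in CK2 (log2 fold change -2.20, SE 0.35, adjusted p = 7.7e-05). The authors' annotation assigns both to the same brassinosteroid-related entry, although CYP749 is a different family.

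CYP71A1 was described from ripening avocado fruit, while the authors' annotation gives MD17G1167200 as a typhasterol hydroxylase of brassinosteroid biosynthesis. MD17G1167200 (CYP71A1, chromosome 17, 16644767 to 16647022, plus strand) had 0.87, 1.02 and 1.25 FPKM in T2 against 36.5, 6.43 and 20.0 FPKM in CK2 (log2 fold change -3.14, SE 0.75, adjusted p = 0.0016). At DAF30 the order of its means was the other way, with 16.0, 0.86 and 16.0 FPKM in T1 against 5.17, 0.65 and 4.49 FPKM in CK1, which overlapped (log2 fold change 1.09, adjusted p = 0.45). Without the second T1 library it was called higher in T at DAF30 (2.15, adjusted p = 0.042). The second library was the lowest of both T1 and CK1 for this gene. The other CYP71A1 gene, MD00G1167000, on an unplaced sequence, was not called at any stage.

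MD03G1281500 (CYP81E8, chromosome 3, 36239416 to 36241840, plus strand) is of a subfamily that hydroxylates isoflavones in legumes. It had 0.05, 0.01 and 0.09 FPKM in T2 against 4.64, 1.11 and 1.42 FPKM in CK2 (log2 fold change -1.55, SE 0.32, adjusted p = 0.00067). At DAF150 it had 0.42, 0.05 and 0.49 FPKM in T3 against 2.31, 2.30 and 0.87 FPKM in CK3 (log2 fold change -1.07, adjusted p = 0.012), and the call was lost without the first or the second CK3 library (-0.93 each) or the second T3 library (-0.91). MD11G1274100 (CYP72A219) fell at DAF60, with 1.33 ± 0.46 FPKM in T2 and 5.88 ± 2.1 FPKM in CK2 (log2 fold change -1.54, adjusted p = 0.001). It also fell at DAF150 (-0.91, adjusted p = 0.041), where its T3 and CK3 libraries overlapped, and that call was lost on leaving out the second (-0.84) or the third CK3 library (-0.84), the first (-0.82) or the second T3 library (-0.61), the third CK1 library (-0.91) or the first T1 library (-0.91).

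The CYP736 family was the largest, with 9 genes of which 5 were tested. The authors' annotation gives CYP736A as a biphenyl hydroxylase, an enzyme type that in apple and its relatives makes antimicrobial biphenyls. At DAF60, 3 of its genes fell, none of them above 10 FPKM, where 61.9% of all genes tested fell. All 3 passed the test's minimum through CK libraries alone. MD11G1219900 (CYP736A12) had 0.06, 0.16 and 0.06 FPKM in T2 against 8.04, 2.12 and 3.12 FPKM in CK2 (log2 fold change -2.16, adjusted p = 4.1e-05). MD14G1224600 (CYP736A12) and MD11G1220600 (CYP736A163) fell at DAF60 with log2 fold changes of -1.45 and -1.31, and that of MD14G1224600 was -0.87, still called, without the second CK2 library.

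A different pair of CYP736A12 genes, on chromosome 6, fell at DAF150 and was not called at DAF30 or DAF60. At DAF30, MD06G1213500 had 5.33, 5.75 and 5.17 FPKM in T1 against 20.2, 6.24 and 8.22 FPKM in CK1, which did not overlap (log2 fold change -0.81, adjusted p = 0.34). At DAF150, MD06G1213500 (34592431 to 34631913, plus strand) had 8.05, 5.82 and 9.51 FPKM in T3 against 64.4, 19.6 and 14.7 FPKM in CK3 (log2 fold change -1.68, SE 0.48, adjusted p = 0.0085). All T3 libraries were below all CK3 libraries, but the call was lost without the first CK3 library (-1.05, adjusted p = 0.064). MD06G1213300 (34590428 to 34596372, plus strand) had 0.58, 0.58 and 0.71 FPKM in T3 against 21.6, 1.33 and 3.77 FPKM in CK3 (log2 fold change -1.96, SE 0.51, adjusted p = 0.0046), and the change was -1.04, still called, without the first CK3 library. The models of these 2 genes overlap on the same strand and may share reads, so they are not independent results. In a fit of the T3 and CK3 libraries alone, neither was called (adjusted p = 0.052 and 0.085). MD11G1220600 fell at DAF150 as well, with 0.32 ± 0.079 FPKM in T3 and 1.02 ± 0.46 FPKM in CK3 (log2 fold change -0.59, adjusted p = 0.014), a call lost without the first CK3 library (-0.44) or the second T3 library (-0.56).

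The genes that rose in T at DAF150 were 4, each of a different family, and all 4 were called when any library was left out. The set of genes tested was kept the same in those fits. Without any T3 library MD02G1136000 would not have reached the test's minimum, so its calls there are not independent of the minimum. CYP714A1 of Arabidopsis deactivates gibberellins. MD07G1238800 (CYP714A1, chromosome 7, 31049651 to 31054087, minus strand) had 44.5, 41.8 and 48.8 FPKM in T3 against 12.3, 14.7 and 13.6 FPKM in CK3 (log2 fold change 1.67, SE 0.25, adjusted p = 4.6e-05). It also rose at DAF60, with 10.1, 5.65 and 8.87 FPKM in T2 against 2.66, 3.10 and 3.17 FPKM in CK2 (log2 fold change 1.18, adjusted p = 0.00071). At DAF30, 2.33, 2.24 and 2.89 FPKM in T1 stood against 1.11, 0.99 and 1.87 FPKM in CK1, and the difference was not called (0.60, adjusted p = 0.12). Its T libraries were above its CK libraries at each of the 3 stages.

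MD01G1204300 (CYP89A2, chromosome 1, 29969281 to 29970837, plus strand), of a family that in Arabidopsis includes an enzyme of chlorophyll breakdown, had 13.4, 21.7 and 11.5 FPKM in T3 against 5.29, 4 and 5.97 FPKM in CK3 (log2 fold change 1.40, SE 0.30, adjusted p = 0.0011). MD16G1056700 (CYP749A22, chromosome 16, 4073313 to 4075687, minus strand) had 5.08, 9.82 and 7.87 FPKM in T3 against 1.73, 1.66 and 3.73 FPKM in CK3 (log2 fold change 1.36, SE 0.32, adjusted p = 0.0023). Its namesake MD13G1057000 had 1.26 ± 0.86 FPKM in T3 and 2.71 ± 0.83 FPKM in CK3 (log2 fold change -0.78, not called). MD02G1136000 (CYP84A1, chromosome 2, 11312471 to 11314616, minus strand) is named after ferulate 5-hydroxylase, which in Arabidopsis leads to syringyl lignin. It had 4.87, 1.17 and 9.11 FPKM in T3 against 0.24, 0.04 and 0.24 FPKM in CK3 (log2 fold change 2.11, SE 0.36, adjusted p = 0.00014). In T1, CK1, T2 and CK2 it stayed at 0.79 FPKM or less, so it passed the test's minimum through its T3 libraries alone. The vascular marker sum was also higher in T3 than in CK3 by its median (70.3 against 51.2 FPKM), with overlapping libraries, and its part in these rises was not tested. At DAF60 that sum was 10.6 to 13.8 FPKM in T2 against 30.7 to 87.5 FPKM in CK2, but genes of the list went different ways. The largest CK2 means were those of laccase genes MD11G1057600 (26.5 FPKM), MD04G1142300 (15.3 FPKM) and MD03G1056400 (8.47 FPKM), whose means were lower in T2 and T3 than in CK. At DAF150 the fall was called for MD04G1142300 (log2 fold change -3.01) but not for MD11G1057600 (-1.29, adjusted p = 0.12) or MD03G1056400 (-0.3, adjusted p = 0.76). Other laccase genes rose at DAF150, such as MD04G1147700 (21.5 ± 22 FPKM in T3 and 1.5 ± 1.8 FPKM in CK3, log2 fold change 2.94) and MD07G1227900 (2.52). The cellulose synthase and fasciclin-like genes had means of 0.423 FPKM or less in T2 and CK2. At DAF150 their means were higher in T3, as for MD12G1120100 (12.0 ± 9.8 against 0.877 ± 0.87 FPKM in CK3).

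**Figure D3:**
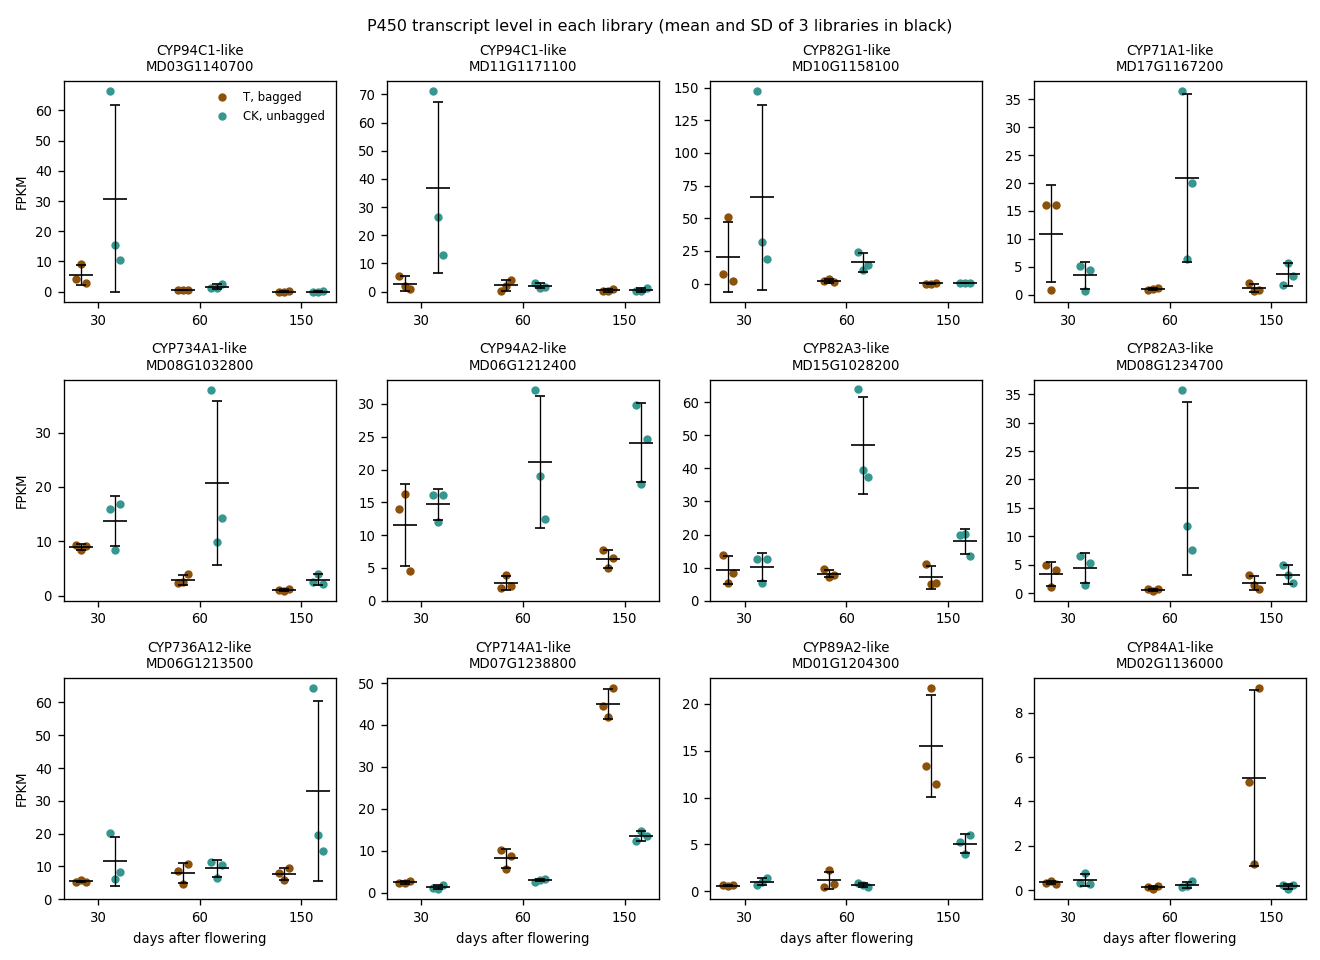
FPKM (vertical axis, own scale in each panel) of 12 P450 genes in each library by days after flowering, with T (brown) left of CK (green) at each stage and the mean and SD of 3 libraries in black. The CYP94C1 panels are high in CK at DAF30 alone, the CYP82A3 and CYP71A1 panels in CK at DAF60, and the CYP714A1, CYP89A2 and CYP84A1 panels in T at DAF150, where CYP714A1 reached 41.8 to 48.8 FPKM.

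Between DAF30 and DAF60, 2 genes rose and 3 fell in T (5.86% and 21.2% of all genes tested), while 14 rose and 3 fell in CK (31.3% and 13.5%). MD13G1057000 (CYP749A22) had 0.40, 0.27 and 0.29 FPKM in T2 against 0.47, 0.17 and 0.23 FPKM in T1 (log2 fold change 0.04, adjusted p = 0.97). In CK it had 7.86, 2.25 and 6.76 FPKM in CK2 against 0.39, 0.16 and 0.13 FPKM in CK1, and this was the largest rise in CK (log2 fold change 2.31, SE 0.35, adjusted p = 0.00013). The CK rises took in 6 CYP82 genes, 3 CYP736 genes and 1 gene each of CYP71, CYP72, CYP81, CYP714 and CYP749, and the 3 falls in CK were CYP94C1 genes. Of these rises, that of MD17G1167200 (CYP71A1, log2 fold change 2.24, adjusted p = 0.021) was lost without the second CK1 library (1.63) or the first (1.71) or the third CK2 library (2.13), and that of MD08G1234700 (CYP82A3, 1.71) without the second CK1 (1.22) or the first CK2 library (1.11). The rise of MD03G1281500 (CYP81E8, 0.92) was lost without the first (0.89) or second CK1 library (0.81) or the first CK2 library (0.48), and that of MD07G1238800 (CYP714A1, 0.79) without the first (0.73) or second CK1 library (0.69). The count of rises in CK was 9 without the second CK1 library and 9 without the first CK libraries together. In T the 2 rises were those of MD07G1238800 (1.37, adjusted p = 0.00088) and MD16G1056700 (CYP749A22, 1.08, adjusted p = 0.021), of which the second was lost without the first (0.88) or second T1 library (1.01) or the first (1.04) or the third T2 library (1.02). MD08G1032800 (CYP734A1) fell in T by 1.37 on the log2 scale (adjusted p = 0.015), a call lost without the first T1 library (-1.35) or the first (-1.25) or second T2 library (-1.31). The 3 falls in T became 5 without the first CK1 library or the second or the third T1 library, and 2 without the first T1, the first T2 or the second T2 library.

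The change of the T to CK difference from DAF30 to DAF60 was tested itself. It was negative for 14 genes and positive for 1 (37.2% and 6.15% of all genes tested). The most negative was that of MD17G1167200 (CYP71A1), -4.23 (SE 1.05, adjusted p = 0.0072), and the next that of MD08G1234700 (CYP82A3), -2.98 (SE 0.78, adjusted p = 0.0086). The positive one was that of MD11G1171100 (CYP94C1), 3.09 (SE 0.84, adjusted p = 0.011), whose difference between T and CK was present at DAF30 and not called at DAF60. After median centring, 6 were negative and 5 positive (7.51% and 21.7% of all genes tested), and without the first CK libraries 11 were negative and 1 positive. These tests share the CK2 and T2 libraries with those above.

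**Figure D4:**
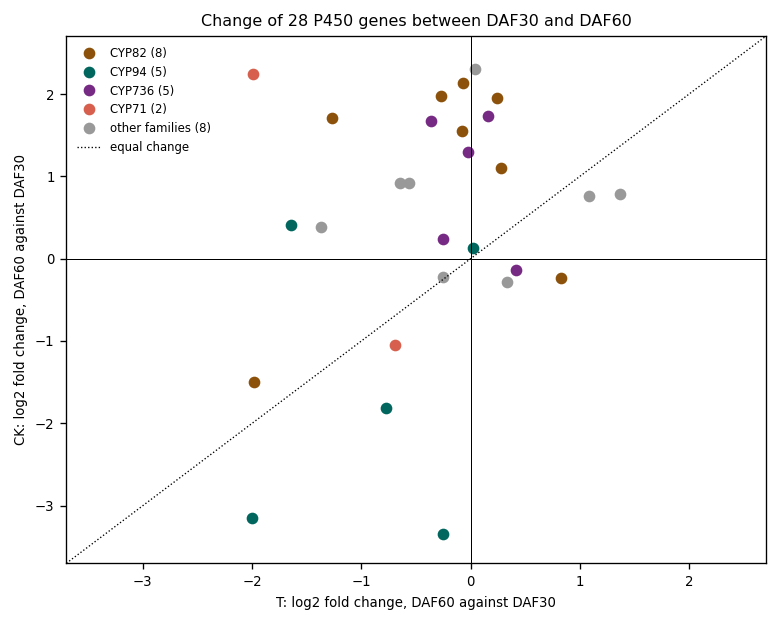
Log2 fold change between DAF30 and DAF60 in T (horizontal axis) and in CK (vertical axis), on the log2(FPKM + 1) scale, for the 28 P450 genes tested, coloured by family. The dotted line marks equal change. Most CYP82 and CYP736 points lie near 0 for T and above 1 for CK, and the 2 lowest points, at -3.15 and -3.34 for CK, are CYP94C1 genes.

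Between DAF60 and DAF150, 4 genes rose and 0 fell in T (18.2% and 16.2% of all genes tested), and 4 rose and 10 fell in CK (17.7% and 39.7%). At an unadjusted p under 0.05, 1 gene fell in T, and 4 fell with a pseudocount of 0.1 FPKM and 4 in a fit of T2 and T3 alone, among them MD10G1158100 (-1.42, adjusted p = 0.0092, in that fit). After median centring, 7 rose and 5 fell in CK (30.3% and 21.6% of all genes tested). The 10 falls in CK became 6 without the third CK3 library and 6 without the first CK libraries together. The 4 rises in T were those of the genes that were higher in T than in CK at DAF150, led by MD01G1204300 (CYP89A2), with a mean of 15.5 FPKM in T3 against 1.16 FPKM in T2 (log2 fold change 2.97, SE 0.30, adjusted p = 9.2e-07). This gene rose in CK as well, with 5.09 FPKM in CK3 against 0.657 FPKM in CK2 (1.87, adjusted p = 6.4e-05), and so did MD07G1238800 (CYP714A1, 2.35 in T and 1.87 in CK). MD02G1136000 (CYP84A1) rose in T by 2.17 (adjusted p = 0.00014), while in CK its change was -0.07 (adjusted p = 0.87), and its T to CK difference grew between the stages by 2.24 (SE 0.51, adjusted p = 0.0066). The T to CK difference changed upwards for 4 genes and downwards for 0 (14.2% and 5.15% of all genes tested; 11 and 2 at an unadjusted p under 0.05). After median centring it changed upwards for 1 and downwards for 2 (4.93% and 14.7% of all genes tested): MD02G1136000 (1.54, adjusted p = 0.057), MD03G1091600 and MD11G1219900 lost their calls, and MD06G1213300 (-2.42) and MD06G1213500 (-2.13) were called. Besides MD02G1136000, the 4 genes without centring were MD08G1234700 (CYP82A3, 2.62, adjusted p = 0.028), MD03G1091600 (CYP82A3, 1.79) and MD11G1219900 (CYP736A12, 1.68), whose falls at DAF60 were not called at DAF150. The call of MD08G1234700 was lost without the first CK2 (2.02), the third CK3 (2.33), the second T2 (2.53) or the first T3 library (2.28), and the count was 2 without the first CK2, the third CK3 or the first T3 library and 9 without the second CK2 library.

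Several of the genes lie side by side in the genome. With neighbours taken as lying within 100 kb, 16 of the 48 genes formed 6 runs. The longest, on chromosome 11 (32199734 to 32369713), held 4 CYP736A genes. All 4 were highest in CK2 by group mean, as were 36.8% of all genes in the table. Another CYP736A12 gene, MD11G1219700 (32096236 to 32098133), lay just beyond the 100 kb limit and had another pattern. It was at 0 before DAF150 and had 0.17, 0.64 and 0.54 FPKM in T3 against 0.06, 0.30 and 0 FPKM in CK3. MD11G1220200 had 0.05, 0.01 and 0.06 FPKM in T2 against 2.34, 0.83 and 0.80 FPKM in CK2, and MD11G1220400 had 0.09, 0.04 and 0.11 FPKM in T2 against 1.13, 0.77 and 0.95 FPKM in CK2, and MD11G1219900 and MD11G1220600 fell at DAF60 as given above. The run on chromosome 15 (1669684 to 1743587) held MD15G1028200, MD15G1028300 and MD15G1028700 of CYP82A, which all fell at DAF60, as did 61.9% of all genes tested. Neighbours did not always share a pattern. On chromosome 5 the CYP82G1 gene MD05G1169600 had 3.91 ± 1.2 FPKM in T2 and 3.89 ± 1.2 FPKM in CK2, while the CYP82D47 gene MD05G1170000 next to it fell, and on chromosome 11 MD11G1274100 (CYP72A219) reached 8.32 FPKM while its neighbour MD11G1274300 of the same name did not exceed 0.08 FPKM.

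The 20 genes below the test's minimum reached at most 3.60 FPKM, and 9 of them never reached 1 FPKM. Over all 48 genes, tested or not, the T libraries lay wholly below the CK libraries for 5 genes at DAF30, 25 at DAF60 and 13 at DAF150 (15.2%, 53.4% and 29.0% of all genes in the table). They lay wholly above for 1, 1 and 6 genes (5.99%, 8.19% and 9.56%). Among the untested genes, MD11G1049600 (CYP714C2) had 0.06, 0.02 and 0.04 FPKM in T2 against 3.60, 0.47 and 0.99 FPKM in CK2, and MD06G1163800 (CYP71A26) had 0.10, 0.07 and 0.19 FPKM in T2 against 2.98, 1.19 and 0.83 FPKM in CK2. MD07G1272000 (CYP714C2) was near 0 except in CK1, with 0.01, 0.03 and 0.03 FPKM in T1 against 2.36, 0.41 and 0.40 FPKM in CK1. MD01G1188200 (CYP704C1, of a fatty acid hydroxylase type) was highest in T1, with 1.44, 0.27 and 1.01 FPKM in T1 against 0.28, 0.12 and 0.16 FPKM in CK1, which overlapped. MD08G1248000 (CYP87A3) had 0.53, 0.10 and 0.05 FPKM in T3 against 0.01, 0 and 0 FPKM in CK3.

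Genes of pathways that supply P450 enzymes or use their products were counted from keyword lists. The shares of all genes tested that fell were 12.4%, 61.9% and 31.5% at DAF30, DAF60 and DAF150. Of 6 triterpene and sterol backbone genes tested, 1, 4 and 3 fell at DAF30, DAF60 and DAF150, and none rose. Of 4 terpene synthase genes tested, 1, 3 and 1 fell and none rose. Of 11 flavonoid genes tested, 1, 7 and 10 fell and 0, 1 and 1 rose. Of 9 UDP-glycosyltransferase genes tested, which add sugars to many P450 products, 0, 7 and 5 fell and none rose. Among the terpene synthases, MD10G1311000, an alpha-farnesene synthase, had 0.153 ± 0.12 FPKM in T2 and 7.69 ± 2.8 FPKM in CK2. The keywords for electron donors found 7 genes, 3 of them tested (1, 2 and 1 rose and 0, 1 and 0 fell), but these were omega-3 desaturases and cytochrome b561 proteins by description and none was a P450 reductase. Of the 6 P450 genes that the rule left out, 5 were tested, and 0, 4 and 1 of them fell and 0, 1 and 1 rose.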

How the data were processed

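Libraries of fruit skin RNA were sequenced on BGISEQ-500. The authors used Bowtie2 to align them to apple genome GDDH13 v1.1 (no version is given in the sources used here, nor the counting tool). The deposited gene levels are FPKM with 2 decimals. The log2 ratios and the p-values or q-values deposited by the authors hold their own comparisons and were used only to see how the table was selected. Since all 2856 genes pass the authors' threshold for T against CK over the stages, adjusted p-values hold within selected genes. Depth per library is unknown from FPKM.

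FPKM was taken as log2(FPKM + 1), which understates changes of low genes. A minimum of 1 FPKM in at least 3 libraries left 1399 genes. They entered limma 3.58.1 (trend and robust moderation, statmod 1.5.0, R 4.3.3) as 6 group means, leaving 12 residual degrees of freedom, and p-values were adjusted by Benjamini-Hochberg. The fit was tested on simulated data. Alternatives were a pseudocount of 0.1, no filter, median centring, a replicate block, fits of the compared groups only, the paper's threshold (adjusted p at most 0.001 with a 2-fold change), and leaving out each library. Leaving out the first CK libraries together was chosen after seeing the data. The genes tested stayed the same when libraries were left out.

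Named genes were, for T against CK at each stage, up to 6 called genes with the largest rise and the largest fall, the 6 with the highest mean FPKM, the largest called rise and fall between neighbouring stages, and the 2 largest called changes of the T to CK difference each way (17 genes). Members, gene lists and tests were chosen with earlier results of these data known. RefSeq sequences of these genes were not used here. Figures were drawn with matplotlib 3.10.9.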

Additional observations from a re-analysis of the deposited data

Results flagged for a closer look

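The change in the T to CK difference between DAF30 and DAF60 was tested, and the naming rule used its largest called values. The number of named genes among the calls is therefore not a separate result. The test called 14 of the 28 genes negative and 1 positive (37.2% and 6.15% of all genes tested). Of the 17 named genes, 9 were among them, with changes of -4.23 for MD17G1167200 (CYP71A1), -2.98 for MD08G1234700 (CYP82A3), -2.27 for MD13G1057000 (CYP749A22), -2.21 for MD15G1028200 (CYP82A3), -2.05 for MD06G1212400 (CYP94A2), -1.76 for MD08G1032800 (CYP734A1), -1.71 for MD05G1170000 (CYP82D47), -1.47 for MD03G1281500 (CYP81E8) and 3.09 for MD11G1171100 (CYP94C1), all on the log2 scale. Of these, the change of MD05G1170000 lost its call without the second CK1 (-1.57), the first CK2 (-1.46) or the third T2 library (-1.64), and that of MD08G1032800 without the second CK1 library (-1.47). The change of MD03G1281500 lost its call without the first CK libraries together (-1.01), and that of MD11G1171100 with a pseudocount of 0.1 FPKM (3.36, adjusted p = 0.056). After median centring, the DAF30 to DAF60 changes of MD06G1212400 (-1.15, adjusted p = 0.13), MD08G1032800 (-0.86), MD05G1170000 (-0.81) and MD03G1281500 (-0.57) were not called. Between DAF60 and DAF150 the difference changed by 2.62 for MD08G1234700, which lost its call on leaving out any of 4 libraries in turn, and by 2.24 for MD02G1136000 (CYP84A1), which was not called after median centring (1.54, adjusted p = 0.057). MD02G1136000 passed the test's minimum through T3 alone, and MD03G1281500 through CK libraries alone.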

How the results depend on the processing

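No call of the 17 named genes changed its direction under any alternative. Of their 61 calls, 21 held under all alternatives and 44 whenever a single library was left out. Without the filter, 1 of 48 genes was higher in T at DAF30 and 27 changed between DAF30 and DAF60 in CK. In fits of the compared groups only, 1 gene was lower in T at DAF30, 5 were lower at DAF150, and 10 changed between DAF60 and DAF150 in T. At the paper's threshold, 0, 10 and 0 genes were lower in T at DAF30, DAF60 and DAF150. MD07G1238800 was higher in T at DAF60, and 2 genes were higher at DAF150. The T to CK difference changed for 0 and 0 genes from DAF30 to DAF60 and from DAF60 to DAF150. Between DAF30 and DAF60, 1 and 8 genes changed in T and in CK, and 6 changed between DAF60 and DAF150 in CK. Shares of all genes tested at this threshold are not given here, so these counts are no result about P450 genes as a class. Median centring left 8 falls and gave 5 rises in T at DAF60, with 3 falls at DAF150. Centring set the median of all genes tested at 0.10 at DAF60, against -1.06 uncentred, by construction, since most genes of the table are lower in T. With a pseudocount of 0.1, 9 and 11 genes changed in T between DAF30 and DAF60 and between DAF60 and DAF150. Without the first CK libraries together, 1 gene was lower at DAF30 and 2 changed their T to CK difference from DAF60 to DAF150. Apart from the built-in effects named, the cause was not tested.

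Leaving out each library gave 0 to 1 genes higher and 1 to 4 lower in T at DAF30, 1 higher and 16 to 18 lower at DAF60, and 4 higher and 3 to 10 lower at DAF150. The lowest count at DAF150 was without the second T3 library (3), then without the first (4) and second (5) CK3 library. The T to CK difference changed for 11 to 17 genes from DAF30 to DAF60 and for 2 to 9 from DAF60 to DAF150. Between DAF30 and DAF60, 3 to 7 genes changed in T and 12 to 18 in CK, and between DAF60 and DAF150, 4 to 6 in T and 11 to 15 in CK.

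The replicate numbers were checked for pairing. The deviations of same-numbered T and CK libraries correlated at -0.347 to 0.175, above 0.1 in 5 of 9 pairs. Differently numbered libraries were not set beside them, so these values cannot settle whether the numbers pair trees. The main fit did not take the numbers as pairs. With the replicate block, 3 genes were lower in T at DAF30, 1 higher and 17 lower at DAF60, 4 higher and 8 lower at DAF150, and 6 changed their T to CK difference from DAF60 to DAF150. The unknown depth limits values under 1 FPKM most.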
